A study of Zea mays with 28 samples.

Results

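Maize leaves that had been injured once were compared 24 h and 2 h after the injury, over all genes. The comparison used 8 of the 28 leaf libraries of the study, 4 from leaves wounded 2 h and 4 from leaves wounded 24 h before collection, chosen by their sample titles, and 22339 of the 39625 genes in the count table were tested. All plants were the inbred B73, and the tissue was the fourth leaf of 22-day-old plants, within an enclosure made of wax barriers. Wounding was a single treatment of both leaf surfaces with 60 grit sandpaper, described as rubbing in the sample labels and as pressing in the methods of the study. Control leaves (n = 4) carried the barriers only. The remaining 16 libraries came from leaves with *O. pratensis* or *T. urticae* mites for 2 or 24 h (n = 4 each, 400 mites per leaf at 2 h and 200 at 24 h). Treatments were staggered and all leaves were collected together, so the 2 wounded groups and the controls share their time of day at collection but the 2 wounded groups do not share the time of day at injury. A replicate is the segment within the barriers of 1 leaf, and the 2-h and 24-h leaves came from different plants.

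A wounded leaf cell perceives damage within minutes, through calcium entry, reactive oxygen and kinase cascades, and makes jasmonic acid (JA) from plastid fatty acids. JA-isoleucine removes the ZIM-domain (JAZ/TIFY) repressors and so releases transcription factors that switch on defense genes, including the genes for the repressors themselves, which closes a feedback loop. In maize leaves these defenses include benzoxazinoids, volatile terpenes and indole derivatives, proteinase inhibitors, chitinases and other pathogenesis-related (PR) proteins. Repair of injured tissue draws on cell wall synthesis and lignin formation. The comparison of 24 h with 2 h asks which of these transcripts had receded and which had accumulated a day after a single injury.

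Between 26216004 and 27928077 reads were counted per leaf at 2 h, between 29148222 and 32891100 at 24 h, and between 24675890 and 29950702 in controls, so every 24-h library was deeper than every 2-h library. Levels are given as CPM (counts of a gene relative to all counts of its library, set to a common total) scaled by edgeR's TMM factors, which compare a gene between leaves and not a gene with another gene, since they are not divided by gene length. No library stood apart from its group. Leaves of the same wounded group differed by a root mean square of 0.342 to 0.529 in log2 CPM over the tested genes, whereas a 2-h leaf and a 24-h leaf differed by 1.20 to 1.46. Control leaves lay 1.35 to 1.63 from the 2-h leaves and 0.686 to 0.998 from the 24-h leaves. The tissue expressed the defining genes of maize mesophyll and bundle sheath at all times, such as pep1, the C4 phosphoenolpyruvate carboxylase, at 21427 ± 2376, 14103 ± 779 and 18012 ± 914 CPM in controls, at 2 h and at 24 h (SD, n = 4 each). None of the 11 genes listed for the C4 cycle, rubisco and the Calvin cycle was called in the comparison of 24 h with 2 h or of either time with controls.

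A gene was called differentially expressed (a DEG) at an adjusted p of at most 0.01 (edgeR quasi-likelihood test, Benjamini-Hochberg over all genes tested) and an absolute log2 fold change of at least 1. From 2 to 24 h after wounding, 2319 genes (10.4%) were upregulated and 3284 (14.7%) were downregulated. Falls were larger than rises. The median log2 fold change was 1.49 among the upregulated and -1.99 among the downregulated genes, and 862 genes fell by at least 3 on the log2 scale while 202 rose by as much. Of the DEGs, 2246 upregulated and 3227 downregulated genes had 4 leaves at 24 h all above or all below the 4 leaves at 2 h, a separation that 27.6% (above) and 27.4% (below) of all tested genes showed. The median over all tested genes was 0.08. Each library holds the RNA of a whole leaf segment, so that fewer cells of a type and less RNA per cell cannot be told apart. Without the requirement on fold change and without adjustment, 7538 genes had a p below 0.05 in the upward and 6856 in the downward direction. With all wounded libraries thinned to the smallest of their totals, 2303 genes were up and 3270 down, so the counts were about as large at equal depth.

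**Figure D1:**
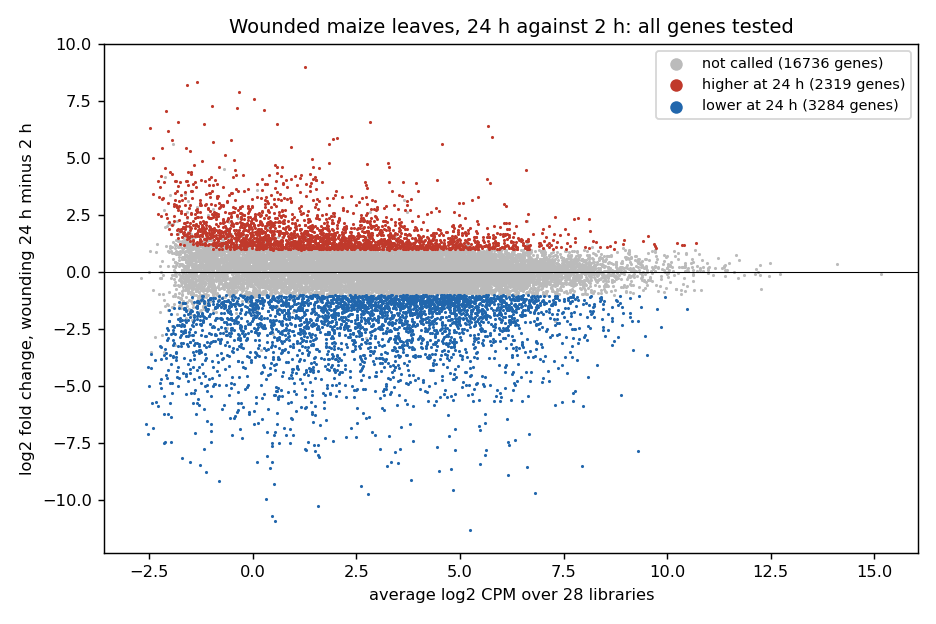
Each point is a tested gene, with its average log2 CPM over the 28 libraries on the x axis and its log2 fold change from 2 to 24 h after wounding on the y axis. Red points are the 2319 genes called higher and blue points the 3284 called lower at 24 h; the blue points reach farther from 0 than the red points.

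The wounded groups were also set against the controls, in fits that share leaves with the comparison above and with each other, so these counts and values stand side by side and are not independent of it. At 2 h, 3793 genes (17%) were above and 1891 (8.47%) below controls. At 24 h, 1743 genes (7.80%) were above and 181 (0.810%) below, 8.61% of the tested genes in all. Median log2 fold changes against controls were 2.27 for genes up and -1.39 for genes down at 2 h, and 2.05 and -1.34 at 24 h.

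Of 48 gene lists assembled by name, 45 had at least 4 tested members. Counts of called members below are read against the shares of all tested genes given above, 10.4% up and 14.7% down from 2 to 24 h, and list medians against 0.08.

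**Figure D2:**
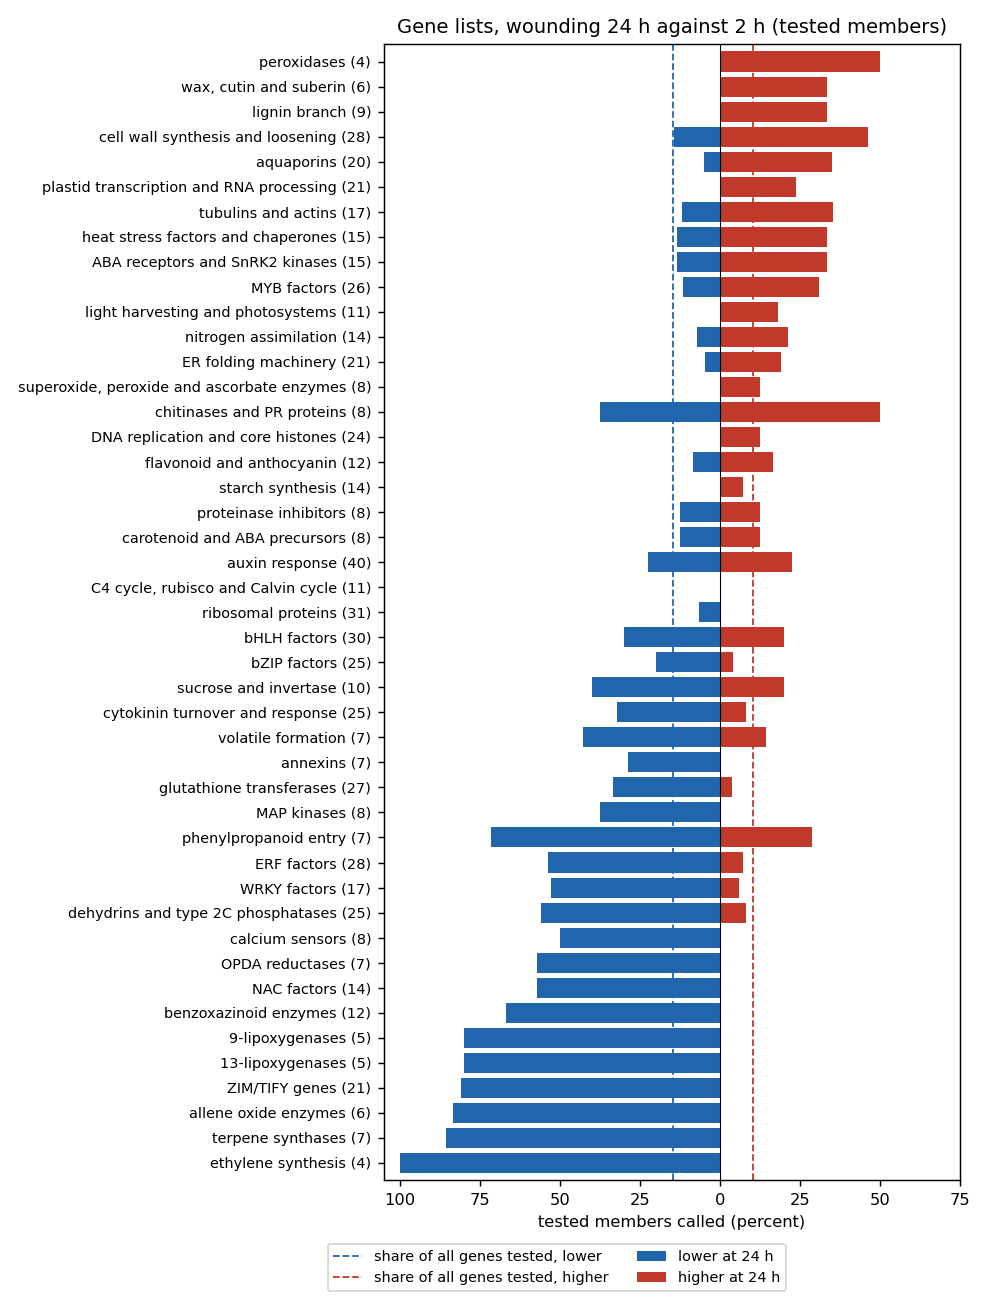
Bars give the percent of the tested members of each list (number in brackets) that were called lower (blue, to the left) or higher (red, to the right) at 24 h than at 2 h of wounding, and dashed lines mark the same shares over all tested genes, 14.7% and 10.4%. Lists of jasmonate, terpene and ethylene genes extend farthest to the left, and the peroxidase, chitinase and PR protein, and cell wall lists farthest to the right.

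Most genes listed by family for JA synthesis, and most listed 9-lipoxygenases, fell. In the order of the pathway, 4 of 5 listed 13-lipoxygenases, which start JA synthesis and the formation of green leaf volatiles, were downregulated and none was upregulated from 2 to 24 h (median log2 fold change -1.64). The corresponding counts were 5 of 6 for allene oxide synthases and cyclases (median -4.79) and 4 of 7 for oxophytodienoate (OPDA) reductases (median -2.73), with none upregulated. Against controls, 3, 5 and 4 genes of these lists were up at 2 h and 0, 1 and 2 at 24 h. Down against controls were 0, 0 and 1 at 2 h and none at 24 h. The lipoxygenase ts1 (tasselseed1, also known as lox8) was at 34.5, 42.9, 48.7 and 44.1 CPM in the control leaves. It was at 317, 494, 407 and 337 CPM in the leaves at 2 h and at 41.9, 41.2, 42.0 and 35.0 CPM at 24 h. All 4 leaves at 2 h were thus above all others, and the 24-h leaves lay within the range of controls. Its log2 fold change from 2 to 24 h was -3.28 (SE 0.15, edgeR adjusted p = 9.15e-16), and at 24 h it was -0.09 from controls (adjusted p = 0.657).

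Not every gene of these lists returned to the level of controls. The allene oxide synthase aos1 was at 2.58, 1.44, 1.46 and 2.48 CPM in controls, at 911, 1233, 1234 and 1058 CPM at 2 h and at 18.5, 16.3, 24.7 and 16.2 CPM at 24 h. The 3 groups did not overlap, and the 24-h leaves stood between the others, with log2 fold changes of -5.87 from 2 h (SE 0.35, edgeR adjusted p = 1.02e-13) and 3.26 from controls (SE 0.35, adjusted p = 4.83e-08). The OPDA reductase opr2 showed the same order, with 1.29, 0.957, 0.708 and 0.840 CPM in controls, 283, 498, 463 and 326 CPM at 2 h and 18.9, 14.3, 20.4 and 16.9 CPM at 24 h. Its log2 fold changes were -4.48 from 2 h and 4.20 from controls (edgeR adjusted p = 3.06e-13 and 3.17e-10). By contrast aos2, at 31.3 ± 13.4 CPM at 2 h and 0.137 ± 0.0442 CPM at 24 h, and opr3, at 4.97 ± 1.40 and 0.119 ± 0.0918 CPM (SD, n = 4 each), fell by 218- and 40.9-fold and were not called against controls at 24 h. The reductases opr5, opr6 and opr8 were not called from 2 to 24 h, with log2 fold changes of 0.09, 0.92 and 0.26. The study states that JA synthesis in maize requires OPR7 and OPR8 at this step. It calls the role of clade 2 allene oxide synthases in JA synthesis uncertain. A gene of these lists, such as opr2, may therefore lie outside JA synthesis. The lipoxygenase lox10, which supplies green leaf volatiles, moved less than the threshold on fold change, at -0.71 (adjusted p = 0.000795), with 5751 ± 1001 CPM at 2 h and 3507 ± 672 CPM at 24 h.

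Of the 5 listed 9-lipoxygenases, which oxygenate the same fatty acids at another carbon, 4 were downregulated (median -5.60) and lox12 was not called (0.22). The gene lox5 was at 1.78, 1.57, 2.58 and 1.50 CPM in control leaves. It was at 536, 804, 765 and 1157 CPM at 2 h, and at 3.35, 1.93, 1.95 and 1.74 CPM at 24 h. The 2-h leaves were far above either other group, and the 24-h leaves overlapped the controls. Its log2 fold change from 2 to 24 h was -8.50 (SE 0.54, edgeR adjusted p = 3.82e-13), and 0.27 at 24 h against controls (adjusted p = 0.705).

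The ZIM/TIFY genes, most of them JAZ repressors of JA signaling, had the largest share of downregulated members among the lists with over 20 tested members. Of 21 tested members, 17 were downregulated and none upregulated from 2 to 24 h, and the median log2 fold change was -3.72. Against controls, 17 were up at 2 h and 2 at 24 h. TIFY10 (GRMZM2G145458) was at 30.1, 49.0, 37.5 and 30.8 CPM at 2 h and at 0.0310, 0.0328, 0.0862 and 0 CPM at 24 h, against 0.114, 0, 0 and 0 CPM in controls. All 2-h leaves lay above all 24-h leaves, and its log2 fold change was -9.72 (SE 0.44, edgeR adjusted p = 7.24e-16). TIFY29 (GRMZM2G036288) had no read in the controls and 33.8, 70.3, 54.9 and 57.9 CPM at 2 h, at least 1828-fold above the level that 3 reads over the control leaves would give. At 24 h it was at 0.124, 0, 0.144 and 0.0948 CPM, a log2 fold change of -9.12 from 2 h. TIFY9 (GRMZM2G145412) fell from 123, 219.7, 145 and 115 CPM to 0.465, 0.459, 1.21 and 0.537 CPM, against 0.493, 0.137, 0.125 and 0.133 CPM in controls. The 4 members not called (TIFY12, TIFY18, TIFY21 and TIFY23) had log2 fold changes between -0.68 and 0.43.

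Most terpene synthases and some other genes for volatile compounds fell. Of 11 terpene synthases with counts, 7 were tested, and 6 were downregulated and none upregulated from 2 to 24 h (median -5.06, or -4.89 with TPS4, which had no read at 24 h, set at its bound). The synthase tps10, which makes the herbivore-induced sesquiterpenes farnesene and bergamotene, was at 0.417, 0.376, 0.833 and 0.398 CPM in controls. It was at 1015, 1464, 1557 and 1809 CPM at 2 h and at 9.98, 4.43, 6.61 and 4.39 CPM at 24 h. The groups did not overlap. The log2 fold change was -7.84 from 2 to 24 h (SE 0.52, edgeR adjusted p = 6.94e-13), and the 24-h leaves were still 3.65 above controls (SE 0.56, adjusted p = 1.53e-05). TPS2, whose product leads to homoterpene volatiles, fell from 646 ± 164 to 15.4 ± 5.60 CPM (SD, n = 4 each) and was 2.84 above controls at 24 h (adjusted p = 4.36e-05). Among 7 other genes of volatile formation, 3 were downregulated and CYP92C6 was upregulated. AAMT1, a methyltransferase that makes methyl anthranilate, was at 1.44, 5.06, 1.29 and 1.68 CPM in controls, at 344, 432, 411 and 571 CPM at 2 h and at 2.39, 4.39, 3.30 and 2.75 CPM at 24 h. Its 24-h leaves lay within the range of controls, and the log2 fold change from 2 to 24 h was -7.10 (SE 0.45, edgeR adjusted p = 3.06e-13). CYP92C5 and CYP92C6 belong to the same family of homoterpene-forming P450 enzymes, and they moved in opposite directions, by -3.70 and 1.11. CYP92C6 was at 60.3, 93.0, 60.5 and 57.1 CPM at 2 h and 149, 156, 154 and 126 CPM at 24 h, and at 114, 105, 101 and 88.0 CPM in controls. Neither time was called against controls, but only the threshold on fold change was missed. The log2 fold changes were -0.59 at 2 h and 0.52 at 24 h (edgeR adjusted p = 0.00149 and 0.00947). Every 24-h leaf lay above every control.

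Most benzoxazinoid genes fell too. DIMBOA-glucoside is made from indole, the product of BX1, by P450 enzymes (BX2 to BX5), glucosyltransferases (BX8 and BX9), the dioxygenase BX6 and BX7. Methyltransferases (BX10 and BX11 here) convert it to the more reactive HDMBOA-glucoside. BX7 was absent from the count table, so it has no value here. Of the 12 genes tested, 8 were downregulated and none upregulated from 2 to 24 h, with a median log2 fold change of -1.67. BX3 represents the core genes, at 72.6, 114, 81.5 and 104 CPM in controls, 405, 470.2, 454 and 609 CPM at 2 h and 80.4, 108, 90.8 and 79.4 CPM at 24 h. All 2-h leaves were above all others and the 24-h leaves lay within the range of controls, with log2 fold changes of -2.43 from 2 h (SE 0.17, edgeR adjusted p = 2.72e-12) and -0.05 from controls. The log2 fold changes of BX4, BX5, BX8 and BX9 from 2 to 24 h were -1.71, -1.96, -1.64 and -1.96, and none of them was called against controls at 24 h. Every BX8 leaf at 24 h nevertheless lay below every control, at 54.9 ± 9.50 against 75.6 ± 6.77 CPM (SD, n = 4 each). Its log2 fold change of -0.46 missed only the threshold on fold change (edgeR adjusted p = 0.00899). BX6 fell by less (-1.22) and was at 147 ± 14.4 CPM at 24 h against 76.1 ± 4.72 CPM in controls (SD, n = 4 each), a log2 fold change of 0.95 that lies just under the threshold (adjusted p = 1.59e-05).

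The methyltransferases BX10 and BX11 had the steepest rise and fall of the pathway genes tested. BX10 was at 0.0758, 0.171, 0.125 and 0.0442 CPM in controls, at 148, 174, 248 and 229 CPM at 2 h and at 1.08, 0.426, 1.90 and 0.632 CPM at 24 h. The groups did not overlap, and its log2 fold changes were -7.60 from 2 h (SE 0.45, edgeR adjusted p = 7.48e-14) and 3.20 from controls (SE 0.79, adjusted p = 0.00295). BX11 behaved alike, at 0.152, 0.0684, 0.167 and 0.221 CPM in controls, 157, 171, 244 and 269.9 CPM at 2 h and 0.930, 1.28, 1.92 and 0.601 CPM at 24 h, with log2 fold changes of -7.46 from 2 h and 2.98 from controls (edgeR adjusted p = 1.67e-14 and 0.0012). BX10 and BX11 are close copies, and because the counts hold only uniquely aligned reads, their levels may be too low.

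The entry genes BX1 and BX2 varied widely among the leaves of a group. BX1 was at 1.37, 0.420, 6.78 and 12.5 CPM at 2 h and 2.98, 20.8, 14.96 and 8.19 CPM at 24 h, and at 7.80, 10.1, 3.63 and 10.7 CPM in controls, so that all 3 groups overlapped (log2 fold change 1.15, SE 0.72, edgeR adjusted p = 0.168). BX2 also overlapped, at 12.1, 17.4, 39.7 and 40.9 CPM at 2 h and 8.68, 31.8, 16.2 and 13.2 CPM at 24 h (log2 fold change -0.66, adjusted p = 0.165). BX13 and BX14, later enzymes of the pathway, had no read in controls and were at mean levels of 0.128 and 0.0502 CPM at 2 h and 0.212 and 0.157 CPM at 24 h, without a call. The log2 fold change of BX14 was 1.56, and -0.61 without 24-h replicate 4.

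**Figure D3:**
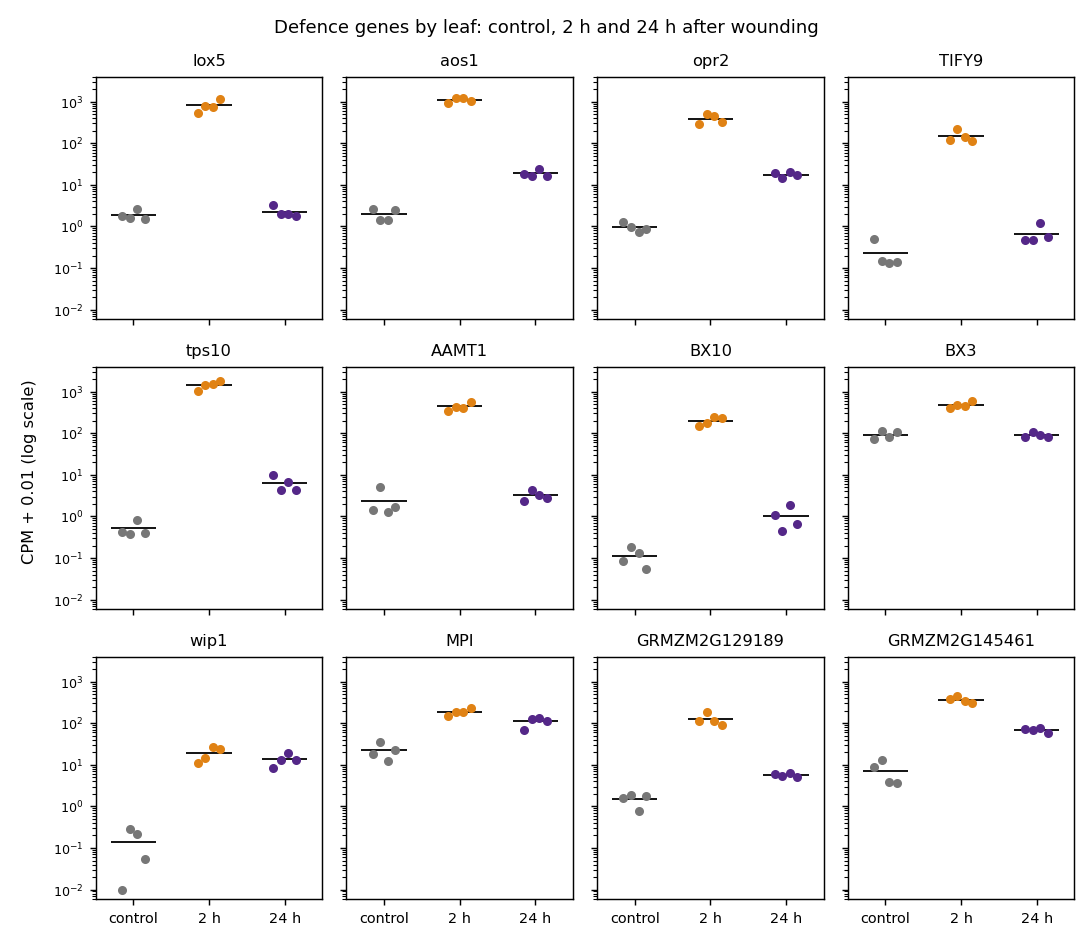
Points are single leaves (4 per group) and lines group means of CPM plus 0.01, on a common log scale, for 12 defense genes in controls and at 2 and 24 h after wounding. At 24 h lox5, AAMT1 and BX3 overlapped controls, aos1, opr2, tps10, BX10 and the 2 chitinase genes lay between controls and the 2-h leaves, and wip1 overlapped the 2-h leaves.

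Proteinase inhibitors, which block digestive enzymes of herbivores, were mostly not called. Of 8 tested members of 11 in the table, only cc5 was downregulated and only cpi2 upregulated from 2 to 24 h, and the median log2 fold change was -0.03. Both are cystatins, inhibitors of cysteine proteinases, and both lay close to the threshold, at -1.03 (SE 0.13) and 1.03 (SE 0.18). The call of cc5 was lost without 24-h replicate 4 (-0.93), and that of cpi2 without 2-h replicates 3 or 4 or 24-h replicates 2 or 3 (0.92 to 0.98), with RLE factors, in DESeq2 with and without its prior, without the expression filter, and in fits without the mite libraries (0.97 to 1.00). The list had 3 members up without 2-h replicate 1, 2 without 2-h replicate 2 or 24-h replicate 4, and none without 24-h replicate 2 or 3. The wound-induced inhibitor wip1 was at 0, 0.274, 0.208 and 0.0442 CPM in controls, 11.3, 14.2, 26.9 and 24.5 CPM at 2 h and 8.37, 13.1, 19.2 and 13.2 CPM at 24 h. The 2 wounded groups overlapped and both lay above controls, with log2 fold changes of -0.51 from 2 to 24 h (SE 0.26, edgeR adjusted p = 0.0881) and 6.58 at 24 h against controls (adjusted p = 3.76e-11). The maize proteinase inhibitor MPI was at 18.1, 34.8, 12.2 and 23.3 CPM in controls, 152, 185, 188 and 229.7 CPM at 2 h and 69.9, 126, 134 and 111 CPM at 24 h. Every 24-h leaf lay below every 2-h leaf, but the log2 fold change of -0.78 (SE 0.26, adjusted p = 0.0114) missed the threshold, and MPI was 2.32 above controls at 24 h (adjusted p = 2.68e-07).

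Chitinases and PR proteins moved both ways, and all tested members were above controls at 24 h. Of 8 tested members of this list, 4 were upregulated (PR10, geb1, PR-1 and PR-5) and 3 downregulated (the chitinase genes GRMZM2G129189, GRMZM2G145461 and GRMZM2G162359) from 2 to 24 h. Against controls, 6 were up at 2 h and all 8 at 24 h, against 7.80% of all tested genes. The 3 chitinase genes entered the list because the study names them for these libraries, so their directions are not independent evidence. PR10 was at 0.265, 1.27, 1.08 and 0.619 CPM in controls, at 3.36, 2.56, 3.59 and 3.35 CPM at 2 h and at 178, 198, 234 and 194 CPM at 24 h. Each group lay above the preceding without overlap, and the log2 fold change from 2 to 24 h was 5.96 (SE 0.27, edgeR adjusted p = 7.24e-16). The glucan-degrading enzyme gene geb1 (a beta-1,3-glucanase) rose from 4.99, 5.50, 5.73 and 5.36 CPM to 116, 124, 143 and 97.8 CPM, against 2.08, 1.13, 0.500 and 0.530 CPM in controls, a log2 fold change of 4.48 (SE 0.35, adjusted p = 1.91e-11).

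PR-1, a widely used marker of salicylic acid responses, was at 4.24, 2.53, 0.583 and 1.99 CPM in controls and 2.29, 3.28, 5.73 and 0.868 CPM at 2 h, where the groups overlapped, and at 15.4, 14.2, 24.0 and 14.8 CPM at 24 h. It rose 5.64-fold from 2 to 24 h (SE 0.48 on the log2 scale, edgeR adjusted p = 6.03e-05). The chitinase gene chiA, which is outside this list, had 1 read over the 4 control leaves, 0.295, 0.462, 0.121 and 0.0789 CPM at 2 h and 16.3, 20.2, 29.8 and 26.4 CPM at 24 h, all 24-h leaves being above all 2-h leaves (6.58, SE 0.31, adjusted p = 1.78e-15). In the other direction, GRMZM2G129189 was at 1.59, 1.91, 0.750 and 1.72 CPM in controls, 115, 189, 113 and 91.1 CPM at 2 h and 5.86, 5.31, 6.46 and 5.22 CPM at 24 h. It fell by 22.2-fold from 2 h (edgeR adjusted p = 3.75e-15) and was 1.92 above controls on the log2 scale at 24 h (adjusted p = 1.13e-06). GRMZM2G145461 and GRMZM2G162359 fell by less, with log2 fold changes of -2.42 and -1.82, and remained 3.24 and 3.91 above controls at 24 h (edgeR adjusted p = 1.14e-08 and 2.88e-09).

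Genes at the entry of the phenylpropanoid pathway moved both ways. Of 7 tested genes at its entry, 5 were downregulated and 2 upregulated from 2 to 24 h (median -2.25). The gene identifiers given here, other than GRMZM2G075333, entered the list because the study names them for these libraries. The directions of those genes are therefore not independent evidence. Both genes for prephenate dehydratases, which supply phenylalanine, fell, GRMZM2G437912 from 245, 311, 278 and 267 CPM to 28.5, 21.4, 26.2 and 21.6 CPM (-3.49, SE 0.22, edgeR adjusted p = 2.45e-13) and GRMZM2G125923 with a log2 fold change of -2.25. So did both genes for cinnamate 4-hydroxylase, the second enzyme of the pathway, GRMZM2G147245 (-4.36) and GRMZM2G010468 (-3.16). The fifth gene that fell was LOC542166 (GRMZM2G075333, -1.07). By contrast 2 genes for phenylalanine ammonia-lyase (PAL), the first enzyme, rose. PAL1 was at 47.9, 69.7, 21.4 and 46.2 CPM in controls, 46.7, 40.3, 41.7 and 43.9 CPM at 2 h and 148, 126, 141 and 124 CPM at 24 h, a log2 fold change of 1.64 from 2 h (SE 0.30, edgeR adjusted p = 3.39e-05). The 2-h leaves lay within the range of controls and all 24-h leaves lay above. GRMZM2G063917 rose by 1.23 (adjusted p = 5.87e-06).

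Of 9 tested genes of the lignin branch (13 in the table), 3 were upregulated and none downregulated from 2 to 24 h (median 1.08), and against controls 3 were up at 2 h and 6 at 24 h. The cinnamoyl-CoA reductase ccr2, the first enzyme committed to lignin monomers, was at 0.265, 1.20, 0.292 and 0.796 CPM in controls. It was at 0.369, 0.378, 0.444 and 0.197 CPM at 2 h and at 15.3, 16.4, 21.5 and 15.9 CPM at 24 h. The 2-h leaves overlapped the controls, and the 24-h leaves were above both, with a log2 fold change of 5.62 from 2 h (SE 0.45, edgeR adjusted p = 2.78e-11). The laccase lac3, of a family that joins lignin monomers in the wall, had 1 read over the 2-h leaves and was at 0.558, 0.426, 0.747 and 0.822 CPM at 24 h (ratio of scaled counts 64.9, exact 95% Clopper-Pearson interval 11.3 to 2590.0, for counting error alone). Of 4 tested peroxidases, PER42 (1.42) and PER2 (1.65) were upregulated and none was downregulated.

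Cell wall genes had the most members that rose of any list. Of 28 tested members of 53 in the table, 13 were upregulated and 4 downregulated from 2 to 24 h (median 0.78), and against controls 11 were up at 2 h and 18 at 24 h. Cellulose synthases made up 6 of the 13, CesA12, CesA13, CesA-9, CesA-4, CesA-7 and CesA-2, with log2 fold changes from 1.90 to 3.97. CesA12, which belongs to the cellulose synthases of secondary walls, was at 1.78, 3.90, 2.25 and 3.36 CPM in controls, 2.10, 2.44, 2.83 and 2.92 CPM at 2 h and 29.9, 29.6, 50.0 and 52.1 CPM at 24 h. The 2-h leaves lay within the range of controls and every 24-h leaf was above (3.97, SE 0.33, edgeR adjusted p = 7.88e-11). The gene bk2 (brittle stalk2), a COBRA-like gene that stalks need for mechanical strength, went from 2.31, 6.91, 4.00 and 5.30 CPM in controls and 4.47, 5.46, 5.17 and 8.75 CPM at 2 h to 51.4, 45.4, 60.7 and 65.9 CPM at 24 h (3.23, SE 0.28, adjusted p = 1.55e-10). The genes downregulated were 3 expansins, which loosen walls, and CesA-5. The expansins expB6, expa2 and EXPA5 had log2 fold changes of -4.62, -4.54 and -2.04, while the expansin expa1 rose by 2.83.

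Of 17 tested tubulins and actins, 6 were upregulated, all of them tubulins, and 2 were downregulated, both actins. The beta-tubulin tub6 was at 1.70, 3.62, 0.750 and 2.25 CPM in controls, 3.77, 4.66, 4.20 and 4.57 CPM at 2 h and 28.2, 23.7, 32.9 and 31.9 CPM at 24 h (2.76, SE 0.29, edgeR adjusted p = 6.98e-09). The actin gene GRMZM2G082484 fell from 79.7, 100.3, 102 and 93.8 CPM to 31.6, 28.7, 38.8 and 30.6 CPM (-1.53, adjusted p = 2.1e-08) and stayed 1.36 above controls. The gene listed as KIN6 rose from 5.87, 5.97, 7.67 and 6.82 CPM to 79.5, 79.6, 121 and 151 CPM, against 2.24, 5.20, 2.00 and 3.01 CPM in controls (4.03, SE 0.30, adjusted p = 6.99e-12).

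**Figure D4:**
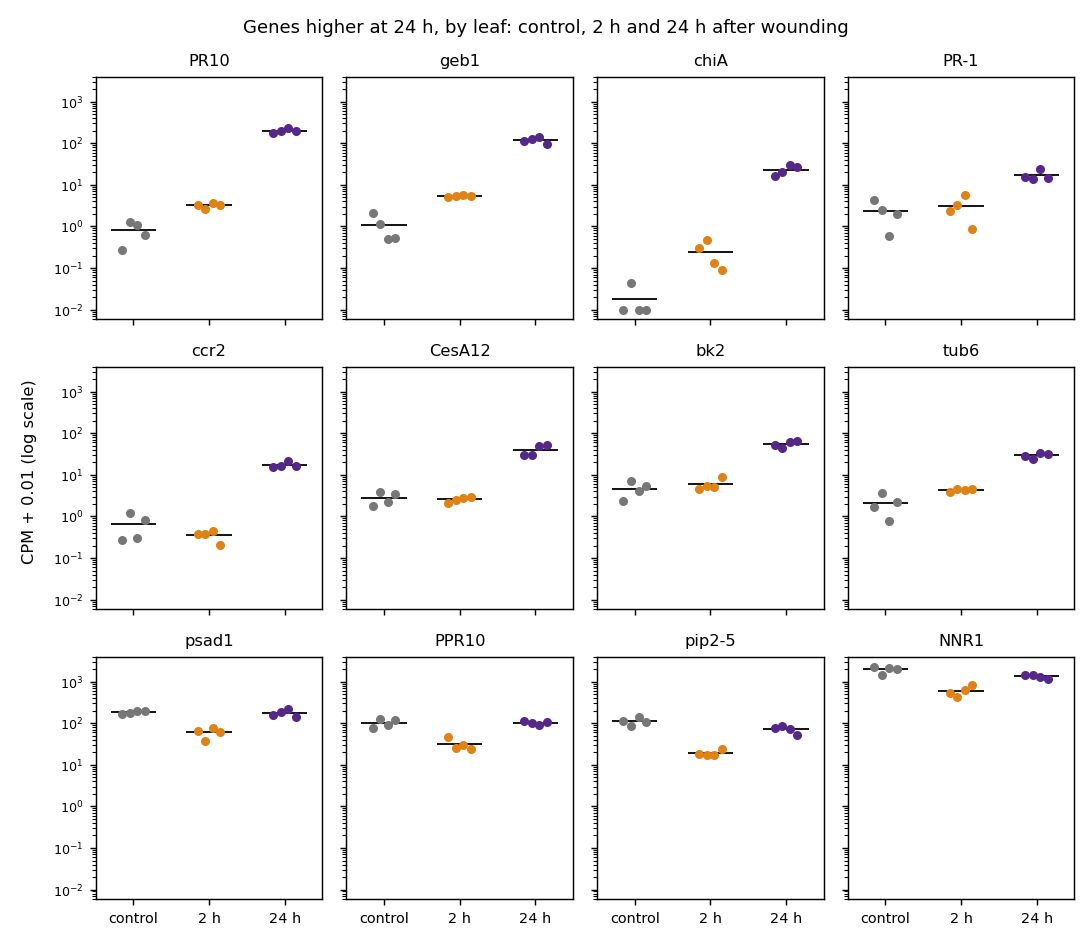
Points are single leaves (4 per group) and lines group means of CPM plus 0.01, on a common log scale, for 12 genes called higher at 24 h than at 2 h. In the first 8 panels (PR10 to tub6) the 24-h leaves lay above controls, and in the last 4 panels (psad1, PPR10, pip2-5 and NNR1) the 2-h leaves lay below controls.

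Some other genes rose from levels that lay below controls at 2 h, but most members of their lists were not called below controls. Light-harvesting and photosystem genes (11 tested) had 2 upregulated and none downregulated members (median 0.59), and against controls 3 were down and 1 up at 2 h and none was called at 24 h. The photosystem I gene psad1 was at 170.1, 177, 199 and 193 CPM in controls, 66.2, 37.9, 76.0 and 61.9 CPM at 2 h and 159.9, 188, 225 and 145 CPM at 24 h. The 2-h leaves lay below all others (1.57, SE 0.30, edgeR adjusted p = 5.41e-05), and the 24-h leaves overlapped the controls (-0.04, adjusted p = 0.926). Plastid transcription and RNA processing genes (21 tested) had 5 upregulated and none downregulated, with a median of 0.70, and all 21 log2 fold changes were above 0, from 0.27 (sig2B) to 1.72 (PPR10). PPR10, which protects chloroplast messages from degradation, was at 76.5, 125, 90.0 and 121 CPM in controls, 47.4, 24.7, 30.2 and 23.3 CPM at 2 h and 114, 103, 91.0 and 105 CPM at 24 h, so that every 2-h leaf was below every other leaf. Against controls, 6 of the 21 were down and 0 up at 2 h, and none was called at 24 h. The count of 5 upregulated genes fell to 3 without 2-h replicate 2, in DESeq2, without an expression filter, and in fits without the mite libraries.

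Aquaporins, the water channels of membranes, had 7 upregulated and 1 downregulated of 20 tested (median 0.63). Against controls, 3 were down and 0 up at 2 h, and 3 were up and 1 down at 24 h. The plasma membrane channel pip2-5 was at 109.8, 83.7, 144 and 109 CPM in controls, 18.5, 17.6, 17.2 and 24.3 CPM at 2 h and 76.3, 87.4, 72.6 and 50.6 CPM at 24 h. Its groups at 2 and 24 h did not overlap (1.89, SE 0.18, edgeR adjusted p = 1.14e-09), and at 24 h its levels overlapped those of controls. PIP2-4, another such channel, rose instead from 14.5, 13.3, 18.5 and 13.8 CPM to 43.1, 48.5, 52.2 and 45.8 CPM, above all controls (2.36 against controls, adjusted p = 1.36e-08). Lsi1, a silicon channel listed with the aquaporins, was the member that fell (2 fell without 2-h replicate 2 or 24-h replicate 4), from 187, 227, 212 and 189.9 CPM to 57.0, 54.8, 59.2 and 55.6 CPM, and its 24-h leaves lay below all controls at 111, 96.4, 115 and 141 CPM (-1.03, adjusted p = 1.59e-07). Among 14 genes of nitrogen assimilation 3 rose and asn3, an asparagine synthetase gene, fell (-1.67), a call lost without 2-h replicate 3 (-1.54) or 24-h replicate 4 (-1.35). Against controls, 2 of the 14 were down and 1 up at 2 h, and 1 was up and 0 down at 24 h. The nitrate reductase NNR1 went from 1956 ± 361 CPM in controls to 593 ± 166 CPM at 2 h and 1347 ± 138 CPM at 24 h (SD, n = 4 each), a log2 fold change of 1.18 from 2 h (adjusted p = 4.5e-07). Of 10 genes for sucrose metabolism and transport, 4 fell, led by sus2 (-2.43), a sucrose synthase that breaks sucrose down, and 2 rose, led by the gene listed as ss2 (1.59).

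Signaling genes fell in part. All 4 tested genes of ethylene synthesis were downregulated, led by the ACC synthase gene ACS6, at 4.54, 6.22, 3.07 and 2.44 CPM at 2 h and 0.155, 0.0656, 0.115 and 0.0632 CPM at 24 h, against 0.0758, 0.103, 0 and 0.0442 CPM in controls (-5.27, SE 0.39, edgeR adjusted p = 8.76e-12). Against controls, 2 of these 4 were up and 0 down at 2 h, and 0 were up and 1 down at 24 h. Downregulated members numbered 4 of 8 among calcium sensors, led by cdpk1 (-1.87), and 3 of 8 among MAP kinases, led by GRMZM2G053987 (-2.56), with none upregulated in either list. The respiratory burst oxidase GRMZM2G441541, of the enzymes that make extracellular superoxide, was at 36.5, 20.7, 38.4 and 33.3 CPM in controls, 232, 369, 339 and 277 CPM at 2 h and 37.7, 33.2, 38.5 and 28.3 CPM at 24 h. Its 24-h leaves overlapped the controls.

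Among transcription factors, the AP2/ERF list (28 tested of 37) had 15 downregulated and 2 upregulated members (median -1.40), the WRKY list (17 tested of 19) 9 and 1 (median -1.44), and the NAC list (14 tested of 24) 8 and 0 (median -1.39). Against controls these lists had 16, 9 and 9 genes up at 2 h, and 3, 1 and 2 at 24 h. EREB139 (GRMZM2G103085) had no control read, was at 8.23, 12.6, 7.83 and 5.01 CPM at 2 h and at 0.0310, 0.0984, 0.0574 and 0.0316 CPM at 24 h (-7.15, SE 0.45, edgeR adjusted p = 2.52e-12). The NAC gene GRMZM2G336533 fell from 36.9, 40.3, 43.4 and 45.8 CPM to 0.806, 0.918, 1.26 and 0.664 CPM, against 0.493, 0.103, 0.208 and 0.265 CPM in controls (-5.50, adjusted p = 2.59e-13). WRKY96 led the fall of its family (-4.38). In the other direction EREB60 rose by 2.07, and WRKY104 by 3.27 from 2 reads over the 2-h leaves (ratio 11.7, interval 2.98 to 101), a call that was lost without 24-h replicate 1 (2.69). Without 2-h replicate 2, 2 WRKY genes were up.

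The larger families moved both ways. MYB factors (26 tested of 41) had 8 up and 3 down (median 0.25), led by MYB94 (3.95) and MYB121 (-2.41). The bHLH list (30 tested of 46) had 6 up and 9 down (median 0.28), and the bZIP list (25 tested of 30) 1 up (2 without 2-h replicate 3 or 4) and 5 down (median -0.08). The bHLH gene bHLH108 fell from 73.8, 111, 85.9 and 65.7 CPM to 0.279, 0.0984, 0.316 and 0.126 CPM, against 0.720, 0.274, 0.417 and 0.0884 CPM in controls (-8.62, SE 0.41, edgeR adjusted p = 1.88e-15). By contrast bHLH165 rose by 2.19, from 2.77 ± 0.932 to 12.6 ± 2.08 CPM, against 10.8 ± 3.28 CPM in controls (SD, n = 4 each). The MYB-related gene MYBR95 fell from 9.84 ± 4.76 CPM to 0.0300 ± 0.0235 CPM (SD, n = 4 each), a log2 fold change of -8.10.

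Other hormone genes followed the early decline in part. Among auxin response genes, and among ABA receptors and kinases, more members were below than above controls at 2 h. Of 25 tested dehydrins and type 2C phosphatases, genes of dehydration and of abscisic acid (ABA) responses, 14 fell and 2 rose (median -1.58). Of these 25, 17 were above and 1 below controls at 2 h, and 4 above and 0 below at 24 h. The phosphatase PP2C16 had a log2 fold change of -3.37, whereas the dehydrin dhn1 rose from 0.332, 0.630, 0.888 and 0.631 CPM to 3.84, 2.98, 4.25 and 2.12 CPM (2.41, SE 0.36, edgeR adjusted p = 2.1e-06) and had 3 reads over the controls. ABA receptors and SnRK2 kinases (15 tested) had 5 up and 2 down, including the receptors PYL7 (1.61) and PYL11 (-3.20). Of these 15, 6 were below and 2 above controls at 2 h, and none was called at 24 h. The log2 fold change of PYL7 from controls was -2.06 at 2 h and -0.45 at 24 h, so its rise was a return toward controls. Cytokinin genes (25 tested) had 2 up (1 without 2-h replicate 1) and 8 down (median -0.49). Of these 25, 7 were above and 2 below controls at 2 h, and 1 above and 0 below at 24 h. The cytokinin oxidase CKX4b, which degrades the hormone, was at 1.10, 2.09, 1.88 and 1.55 CPM in controls, 34.9, 47.1, 46.5 and 39.9 CPM at 2 h and 1.52, 1.11, 1.84 and 1.30 CPM at 24 h, with its 24-h leaves within the range of controls (-4.86, SE 0.20, adjusted p = 1.66e-16). Auxin response genes (40 tested of 58) had 9 up and 9 down (median 0.20), from AUX18 (-3.27) to IAA12 (1.98). Without 24-h replicate 2, 5 were upregulated. Glutathione transferases, which conjugate reactive compounds, had 9 of 27 down and 1 up (median -0.56). The member up was GST38 (1.10), whose call was lost without 2-h replicate 4 (0.96), and 2 were up without 2-h replicate 2 or 24-h replicate 4. GST38 was at 19.8 ± 3.66 CPM in controls, 6.33 ± 1.81 CPM at 2 h and 13.6 ± 0.822 CPM at 24 h (SD, n = 4 each). The list was led by GST25, at 138, 171, 129 and 148 CPM at 2 h and 4.43, 2.72, 2.56 and 1.83 CPM at 24 h (-5.67, adjusted p = 1.62e-12).

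Ribosomal protein genes moved little. Of 31 tested ribosomal protein genes, none rose and 2 fell, with a median log2 fold change of 0.13. Both that fell are listed as RPL10. The copy GRMZM2G088005 was at 4.69, 11.1, 13.1 and 8.32 CPM at 2 h and 0.465, 0.393, 1.06 and 0.696 CPM at 24 h with 1 read over the controls, and the copy GRMZM2G087233 was at 480.3, 618, 533 and 476 CPM and 158, 132, 152 and 161 CPM, against 87.2, 141, 71.8 and 95.2 CPM in controls. Their log2 fold changes were -3.81 and -1.80 (edgeR adjusted p = 1.7e-09 and 6.09e-10), while the other 29 lay between -0.13 and 0.49. DNA replication and histone genes (24 tested of 31) had 3 up and none down (median 0.20), and starch synthesis genes (14 tested) 1 up. Heat stress factors and chaperones (15 tested of 20) had 5 up and 2 down, led by the small chaperone hsp22, at 0.849, 0.420, 0.848 and 0.591 CPM at 2 h and 4.28, 4.00, 7.15 and 4.71 CPM at 24 h (2.88, SE 0.33, edgeR adjusted p = 3.36e-08), and the 2 that fell were the heat stress factors HSF6 (-1.32) and HSF29 (-1.25). Genes for folding proteins in the endoplasmic reticulum (21 tested) had 4 up and 1 down, and for superoxide, peroxide and ascorbate enzymes (8 tested) 1 up.

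Carotenoid genes (8 tested) had 1 up and 1 down, CRTISO2 (1.50) and BCH2 (-2.15). CRTISO2 was at 20.9 ± 3.16 CPM in controls, 5.54 ± 1.84 CPM at 2 h and 15.7 ± 0.508 CPM at 24 h (SD, n = 4 each). Flavonoid and anthocyanin genes (12 tested) had 2 up and 1 down (1 up without replicate 1, 2 or 4 of either time), with the anthocyanin regulator R-S at 2.48 and GRMZM6G474234 (listed as a2) at -1.49. Wax, cutin and suberin genes (6 tested) had 2 up, the phospholipid transfer protein genes plt1 (1.12) and plt2 (1.38). Annexins (7 tested) had 2 down, led by Ann9 (-1.86).

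The largest fitted changes, among DEGs with an average log2 CPM of at least 1 over the 28 libraries whose groups did not overlap, were in genes for which the name table gives mostly locus numbers. For low groups the fitted value depends on the model, so ratios of scaled counts are given with exact 95% Clopper-Pearson intervals where a group held 1 to 3 reads, and these cover counting error alone. The largest falls were in LOC100284823 (GRMZM2G154523), LOC100382214 (GRMZM2G117627), TIFY10, GRMZM2G124799, LOC100194339 (GRMZM2G066428) and GRMZM2G496991. LOC100284823 was at 30.4, 54.5, 38.1 and 81.8 CPM at 2 h and had 2 reads over the 24-h leaves, a ratio of 3290 (interval 909 to 27100). LOC100382214 was at 11.4, 24.2, 16.99 and 8.79 CPM at 2 h, with 1 read over the 24-h leaves, a ratio of 1950 (350 to 77200), and no read in controls. GRMZM2G496991, with 3 reads over the 24-h leaves, had a ratio of 796 (272 to 3860). GRMZM2G124799 fell from 53.8, 104, 102 and 159 CPM to 0.0930, 0.0984, 0.230 and 0.0632 CPM (-9.67, SE 0.62, edgeR adjusted p = 4.65e-13), and LOC100194339 from 68.1 ± 23.03 to 0.0817 ± 0.0884 CPM (SD, n = 4 each).

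The largest rises were in LOC100284455 (GRMZM2G094328), chiA, LOC100192117 (GRMZM2G112538), PR10, LOC100280999 (GRMZM2G122276) and LOC103629617 (GRMZM2G099092). LOC100284455 had 1 read over the 2-h leaves and was at 4.56, 5.34, 11.9 and 8.63 CPM at 24 h, a ratio of 779 (139 to 30800). LOC100192117 was at 0.758, 1.30, 0.625 and 1.24 CPM in controls, 1.99, 1.68, 2.34 and 1.89 CPM at 2 h and 153, 172, 191 and 172 CPM at 24 h. Its leaves at 24 h differed little from each other, and it had the smallest SE of these genes (6.44, SE 0.21, edgeR adjusted p = 8.17e-18). LOC100280999 rose from 0.201 ± 0.0965 to 12.2 ± 1.19 CPM and LOC103629617 from 0.174 ± 0.172 to 9.88 ± 3.85 CPM (SD, n = 4 each), and neither was called against controls at 2 h.

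The change from 2 to 24 h after wounding was compared with the change from 2 to 24 h with mites, taken as the mean of the 2 species, in a test of the difference between these changes. The comparison shares no leaf between its sides. A mite-infested leaf was fed on until collection while wounding was applied once. Separate leaves received 400 mites for 2 h or 200 mites for 24 h. Time, dose and continued damage therefore cannot be told apart on the mite side. The change was higher with wounding for 2838 genes (12.7%) and lower for 4360 genes (19.5%), 32.2% of the 22339 tested in all (edgeR, adjusted p at most 0.01 and a difference of at least 1 on the log2 scale). Before adjustment 7230 and 7544 genes had a p below 0.05 in these directions.

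Several lists lay far from these shares. With wounding relative to mites, the change was lower for 17 of 21 ZIM/TIFY genes, 4 of 5 9-lipoxygenases, 6 of 7 terpene synthases, 11 of 12 benzoxazinoid genes and 6 of 8 chitinases and PR proteins, and higher for none of them. The study names the listed chitinase genes for their induction in these libraries, so their directions here are not independent evidence. For lox5 the mean change with mites was 3.21 against -8.50 with wounding. The change was higher with wounding for 16 of 21 plastid transcription and RNA processing genes and for 8 of 11 light-harvesting and photosystem genes, with 0 and 1 lower. Cell wall genes were divided, with 9 higher and 9 lower of 28. For CesA12 the changes were 0.41 with mites and 3.97 with wounding (difference 3.57, SE 0.39, adjusted p = 1.29e-08). For PR10 the changes were 5.74 with mites and 5.96 with wounding, and the difference of 0.22 (SE 0.31, edgeR adjusted p = 0.549) was not called.

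The largest differences among called genes with an average log2 CPM of at least 1 were in genes whose change was below 0 with wounding and above 0 with mites. GRMZM2G124799, which fell from 105 ± 42.8 to 0.121 ± 0.0741 CPM with wounding (SD, n = 4 each), went from 1.57 ± 1.10 to 338 ± 127 CPM with *O. pratensis* and from 0.444 ± 0.223 to 337 ± 207 CPM with *T. urticae*. The mean change was 8.71 with mites and -9.67 with wounding. LOC100284823 and LOC100501142 (GRMZM2G050234) showed the same opposition, with changes of -11.30 and -8.88 for wounding and 5.42 and 5.47 for mites. LOC100501142 was at 426, 533, 458 and 442 CPM at 2 h of wounding and 0.806, 0.295, 2.27 and 0.474 CPM at 24 h. In the upward direction, ccr2 changed by 5.62 with wounding and 0.59 with mites (difference 5.03, SE 0.54, edgeR adjusted p = 9.04e-09). GRMZM2G150363 rose from 0.406, 1.05, 1.21 and 2.21 CPM to 3.72, 13.5, 10.2 and 5.63 CPM with wounding, below controls at both times in its means (1.22 and 8.26 against 23.6 CPM), and changed by -1.97 with mites. GRMZM2G429955 varied widely, at 1.99, 0.378, 8.60 and 8.83 CPM at 2 h and 8.49, 13.5, 77.6 and 25.5 CPM at 24 h, and its change with wounding alone was not called (2.66, adjusted p = 0.0178).

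**Figure D5:**
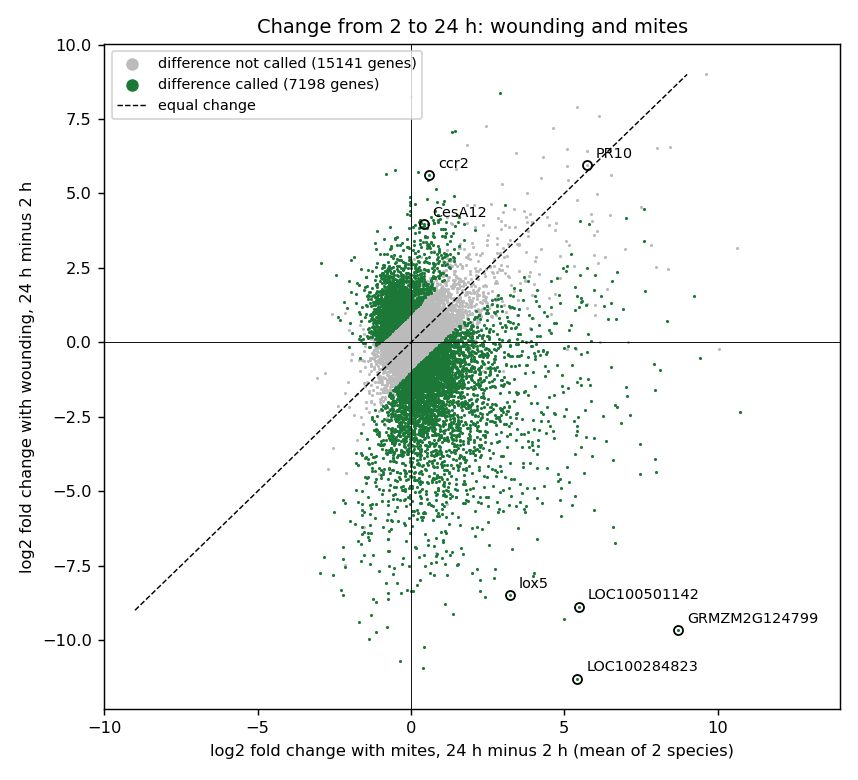
Each point is a tested gene, with the log2 fold change from 2 to 24 h with mites (mean of 2 species) on the x axis and with wounding on the y axis; the dashed line marks equal change. Green points are the 7198 genes whose changes differed, and circles mark 7 genes named in the text, of which PR10 lies near the line and GRMZM2G124799 farthest to the lower right.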

How the data were processed

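Messenger RNA of maize leaf segments was sequenced as stranded poly(A) libraries. Reads had been aligned by the authors with STAR 2.5.2b to AGPv3 (B73 RefGen_v3) and counted uniquely aligned reads per gene, by strand, with HTSeq 0.6.0, and the deposited values are raw counts, with replicates not pooled. Unique alignment lowers the counts of near-identical gene copies. Gene symbols came from a RefSeq table of a later B73 assembly, used for names only, in which 19060 of the 39625 identifiers were found, 18539 of them with 1 entry. The table held 0 per-sample columns that were left out.

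Counts were tested with edgeR 4.0.16 (quasi-likelihood, R 4.3.3). The model held all 28 libraries and a mean for each group, after filterByExpr (by group) and TMM scaling. Benjamini-Hochberg adjustment ran over the 22339 genes tested. Calls were made at adjusted p up to 0.01 and absolute log2 fold changes from 1 up. SE is the log2 fold change over the square root of the F statistic, without sign. Levels are CPM with TMM-scaled library sizes. Library totals were between 14721310 and 32891100 reads. Plants stood in randomized blocks, and the labels do not tie replicate numbers to blocks. Each leaf came from a separate plant, so the spread between replicates is that between plants. Reads carried no molecular identifiers, so intervals from read numbers cover counting error only. Where a group of 4 libraries had no read, a fold is a bound against 3 reads over the group.

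The genes and lists were chosen with earlier results of these data known. A part of the lists was added after the name table had been read, and no list was tested as a set. Genes named by rule were the 6 largest rises and falls among called genes that had an average log2 CPM of at least 1 and no overlap of the 2 groups, the same among genes with a symbol, the called member with the largest rise and fall in each list, every gene that the study names by identifier, and the 3 largest differences from mites in each direction. Other genes in the text were chosen after their values were seen. Replicate pairs of a group all differed by more than counting noise.

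Alternatives were the size factors of DESeq2 (RLE) in edgeR, DESeq2 1.42.0 with and without its prior, no expression filter, an adjusted p of 0.05, a test against a fold change of 2 (glmTreat), the wounded libraries alone or with controls, a block for the replicate number, and fits that left out each wounded leaf in turn. Thinning the 8 wounded libraries to 26216004 reads each was added after seeing the data. The fitting script was tested on simulated data.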

Additional observations from a re-analysis of the deposited data

Results flagged for a closer look

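The change from 2 to 24 h differed between wounding and mites for 2838 genes in the upward and 4360 in the downward direction. By the test of the difference itself, the largest log2 differences were -18.38 for GRMZM2G124799, -16.72 for LOC100284823 and -14.35 for LOC100501142 in the downward and 5.59 for GRMZM2G429955, 5.03 for ccr2 and 4.73 for GRMZM2G150363 in the upward direction. The number of mites per leaf also differed between 2 and 24 h, and its part in these differences was not tested.

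In 16 of 292 pairs of a named gene and a group (5.48%), a single leaf lay far from the other 3 by Dixon's criterion, which chance alone meets in about 1 of 20 groups. Among leaves at 24 h, replicate 3 was highest for ccr2 (21.5 CPM), AUX18 (3.82), MYB121 (1.92) and the cinnamate 4-hydroxylase gene GRMZM2G147245 (2.18). Replicate 1 was highest for lox5 (3.35 CPM), and replicate 4 was highest for BX14 (0.537) and lowest for ts1 (35.0). Among leaves at 2 h, replicate 2 was highest for LOC100194339 (102.5 CPM), CYP92C6 (93.0) and WRKY96 (4.71), and replicate 1 was lowest for PYL11 (21.7). Among controls, replicate 2 was highest for AAMT1 (5.06 CPM), GRMZM2G063917 (3.59) and LOC100280999 (0.308), replicate 3 was highest for tps10 (0.833), and replicate 4 was lowest for hsp22 (0.0884). Without 24-h replicate 4 the log2 fold change of BX14 was -0.61, and no called gene named here lost its call without a single wounded leaf.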

How the results depend on the processing

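Of the alternatives run, those other than glmTreat kept the total counts of calls within 1.5 times. The counts against controls were recomputed with glmTreat and with DESeq2 without its prior only. Against a fold change of 2, glmTreat called 779 genes higher and 2246 lower, as this test asks for a fold change beyond 2 and not for a difference from 0. It called 3945 genes for the difference from mites (960 higher, 2985 lower), 600 genes lower than controls at 2 h, 834 higher and 17 lower than controls at 24 h, and 44 of the list members higher. Without single wounded leaves, 2075 to 2357 genes were higher and 3108 to 3464 lower, 6942 to 7357 differed from mites (2490 to 2883 higher, 4221 to 4546 lower), and 97 to 109 list members were higher and 180 to 186 lower. Of 1638 values of named genes under alternatives, 1621 kept their direction and side of the threshold. The exceptions were cpi2 (10 alternatives, 0.92 to 1.00), asn3 (-1.54 and -1.35), cc5 (-0.93), GST38 (0.96), WRKY104 (2.69), BX14 (-0.61 to 2.35 without single wounded leaves, reversed without 24-h replicate 4) and GRMZM2G429955 (called at 2.60 with the replicate block). The cause was not tested. After TMM scaling, the median log2 fold change of all tested genes from 2 to 24 h was 0.0772. The TMM factors were 0.908 to 0.970 for the 2-h leaves and 1.02 to 1.09 for the 24-h leaves. The median without scaling was not computed.

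Same-numbered leaves at 2 and 24 h had correlated deviations of 0.143, 0.127, 0.186 and 0.0649, and replicate 4 of neither time correlated best with its own number, so the numbers were not read as pairs. The replicate block gave 2362 genes higher and 3273 lower, with 2905 higher and 4365 lower than with mites.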
